A study of Mus musculus with 9 samples.

Results

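Of 5281 circRNAs counted in 3 cell types of the embryonic mouse cortex, 805 (15.2%) had a counted length below 250 bases and are described here. Members were chosen by this length alone, leaving out 19 short entries of a dense cluster on chromosome 17 whose entries span chr17:39979944-39985671. The cells came from the lateral cortex of C57BL/6 embryos at embryonic day (E) 14.5 of a line with the reporters Btg2-RFP and Tubb3-GFP. The first marks progenitors committed to neurogenesis and the other newborn neurons, and the study describes the pregnant mice as heterozygous for both. Proliferative progenitors (PP) were sorted as negative for both reporters, differentiative progenitors (DP) as RFP positive and GFP negative, and newborn neurons (N) as GFP positive, with 3 biological replicates of each. All 9 libraries were made from total RNA treated with RNase R, so no untreated sample enters these values, and whether a replicate pooled embryos is not given in the sources used here.

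CircRNAs are made when the spliceosome joins the 3′ end of an exon to the 5′ end of the same or an earlier exon, a reaction called backsplicing. The closed circle has no free end, which protects it from exonucleases such as RNase R, an enzyme that degrades linear RNA. In brain, circRNAs are abundant and many are regulated as neurons form. A single short exon can be circularized alone, and a pair of neighbouring exons can be circularized together after the intron between them has been spliced out. RNase R also leaves the closed loop of intron lariats intact, so loops from introns can be recovered beside circles of exons.

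The sequences that the results below turn on are given 5′ to 3′ from the mm9 genome, which is the build of the deposited coordinates, with exon numbers from a GENCODE vM1 transcript. The first set holds the circles made of 1 coding exon that were among the most abundant or most changed short circRNAs, together with the App circle of 2 exons, which was added after its values were seen. Capitals mark the 10 bases at each end, which the backsplice joins.
Pea15a circ_000175 (chr1:174129242-174129397, minus strand, exon 3): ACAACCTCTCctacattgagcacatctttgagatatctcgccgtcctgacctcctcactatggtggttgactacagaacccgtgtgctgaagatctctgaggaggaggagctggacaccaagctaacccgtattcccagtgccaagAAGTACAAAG
Ptbp1 circ_000661 (chr10:79322526-79322700, plus strand, exon 7): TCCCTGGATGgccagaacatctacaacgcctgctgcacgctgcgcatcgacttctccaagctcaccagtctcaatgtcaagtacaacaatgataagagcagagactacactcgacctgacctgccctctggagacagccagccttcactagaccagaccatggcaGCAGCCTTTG
Qk circ_002492 (chr17:10431758-10431901, minus strand, exon 4): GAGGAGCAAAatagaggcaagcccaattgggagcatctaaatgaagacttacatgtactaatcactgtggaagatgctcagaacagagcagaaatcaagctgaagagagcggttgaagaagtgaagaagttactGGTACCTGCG
Mpped2 circ_003354 (chr2:106623790-106624015, plus strand, exon 4): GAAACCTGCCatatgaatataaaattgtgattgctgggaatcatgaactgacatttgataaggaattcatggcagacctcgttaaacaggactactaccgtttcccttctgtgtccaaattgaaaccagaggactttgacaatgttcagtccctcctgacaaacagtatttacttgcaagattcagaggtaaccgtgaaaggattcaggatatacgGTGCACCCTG
Meis2 circ_003364 (chr2:115825867-115826012, minus strand, exon 9): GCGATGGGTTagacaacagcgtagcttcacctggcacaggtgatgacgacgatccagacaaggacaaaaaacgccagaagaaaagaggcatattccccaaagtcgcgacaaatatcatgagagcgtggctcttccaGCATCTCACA
Bcl11b circ_001253 (chr12:109203882-109204097, minus strand, exon 3): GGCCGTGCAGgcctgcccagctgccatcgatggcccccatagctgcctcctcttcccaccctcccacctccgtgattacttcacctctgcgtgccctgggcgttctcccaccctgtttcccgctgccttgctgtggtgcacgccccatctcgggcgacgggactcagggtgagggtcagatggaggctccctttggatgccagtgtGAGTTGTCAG
Sox5 circ_005368 (chr6:144064964-144065174, minus strand, exon 3): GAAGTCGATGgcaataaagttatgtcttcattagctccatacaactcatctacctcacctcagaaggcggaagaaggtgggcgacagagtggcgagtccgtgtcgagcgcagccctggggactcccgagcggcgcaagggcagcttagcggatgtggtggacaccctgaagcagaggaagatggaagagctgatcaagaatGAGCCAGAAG
App circ_002443 (chr16:85040496-85043988, minus strand, exons 7 to 8): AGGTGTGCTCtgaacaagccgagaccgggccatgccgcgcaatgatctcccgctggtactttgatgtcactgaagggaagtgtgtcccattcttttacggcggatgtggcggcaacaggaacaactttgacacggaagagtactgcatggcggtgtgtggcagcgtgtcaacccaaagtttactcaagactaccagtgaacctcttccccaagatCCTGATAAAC

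The second set gives backsplice junctions of named members with more exons or with ends that are not annotated exon ends. Lower case letters are the last 15 bases of the circle and capitals the first 15 bases, so that the junction lies between them.
Taf15 circ_001117 (chr11:83314617-83316354, plus strand, exons 11 to 12): gaggtggacgccgagACTAACAAAAAGACT
Gnb1 circ_004521 (chr4:154901522-154909573, plus strand, exons 3 to 5): gggcacagactcaagAGCTTGGATTCTGAA
Nfib circ_004671 (chr4:81996293-81999547, minus strand, exons 5 to 6): atgaacgagatcaagCACCCATAACCCAGG
Top2a circ_001214 (chr11:98858043-98859233, minus strand, exons 29 to 30): aaagaagtgctgcagAGTGAAAACGTTGAG
Afap1 circ_005119 (chr5:36278201-36278781, plus strand, exons 2 to 3): cctcagccatggctgCAATGGAAGAGTTAA
Tbc1d14 circ_005126 (chr5:36865576-36867697, minus strand, exons 5 to 6): aggccaagaaacgagGAATATGAAGACAAG
Sox5 circ_005364 (chr6:143889871-143909440, minus strand, exons 7 to 8): ccactccagctgcagCAGGTTCAAGGTCAG
Slc8a2 circ_005809 (chr7:16738168-16738643, plus strand, exons 7 to 8): ttaccgtaagcgcagGGAATGGAGACAAGA
Mark4 circ_005832 (chr7:20022287-20022867, minus strand, exons 9 to 10): acaccaagagaattgGAGCTGCGGGAGCGA
Snrnp70 circ_005907 (chr7:52636830-52636937, minus strand): ccagggtccttggagGACAGAGCTGGCCAG
Ccdc107 circ_004583 (chr4:43505697-43505895, plus strand): aggaacatgtccctcCCAGGTCGCACTGCC

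The libraries held between 2962787 and 8015311 counts, of which between 83572 and 287983 lay outside the chromosome 17 cluster and an entry within Cdk8. A count of 3, taken as the floor of a library, was worth between 0.340 and 1.39 CPM, the counts scaled to a library size of 1e+06 with TMM normalization. PP replicate 3 and N replicate 1 were the shallowest in counts outside the cluster and the Cdk8 entry. They stood apart from the others of their cell type, with a chi-square per degree of freedom between replicates of 4.87 to 7.82 for pairs that held one of them against 1.21 to 2.05 for the other pairs. Among circRNAs of marker genes, the summed level of the PP list was 200.2 to 315 CPM in PP, 69.8 to 97.3 in DP and 51.4 to 78.3 in N, from entries of Notch1, Ptprz1 and Fgfr2, while the other 8 of its 11 genes had no entry. In PP, DP and N the means were 41.3, 21.7 and 0.318 CPM for Notch1 and 118, 33.3 and 12.5 for Fgfr2. Ptprz1, at 82.0, 27.5 and 51.6 CPM, was higher in N than in DP and made up most of the sum in N. The DP list was represented by Mfng alone, 1 of 8 genes, at 10.6 to 33.0 CPM in PP, 37.8 to 45.7 in DP and 1.98 to 13.3 in N. Of the N list 4 of 9 genes had entries, which reached 4.37 to 14.4, 36.4 to 45.1 and 263 to 336 CPM. Defining markers such as Sox2, Pax6, Eomes, Tubb3 and Dcx had no entry. Of the interneuron list 1 of 7 genes, Erbb4, had entries, at 3.43 to 6.75 CPM in N, 0 to 2.32 in PP and 0 to 0.248 in DP, and its part in the results for N was not tested. Genes of endothelium, microglia, mesenchyme and blood had no entry, so these cells could not be assessed.

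Most short circRNAs were 1 or 2 whole exons. Counted lengths ran from 46 to 249 bases with a median of 205. The ends of 732 of the 805 (90.9%) coincided with annotated exon ends, against 98.1% of the 4449 longer circRNAs. Of these 732, 205 (28.0%) were 1 exon, 495 (67.6%) were 2 exons, 31 were 3 exons and 1 was 4 exons, whereas 6.12% of the longer circRNAs were 1 exon and 24.8% were 2. In 727 of the 732 the counted length equalled the exons plus 1 base for each exon, so the counted length of these members exceeds the circle by 1 base per exon. The same match was found in 86.4% of longer circRNAs. At the limit, the 5 members of 249 bases had mean levels of 1.88 to 5.27 CPM and the 13 entries of 250 bases, just outside, 0.724 to 6.37 CPM.

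**Figure D1:**
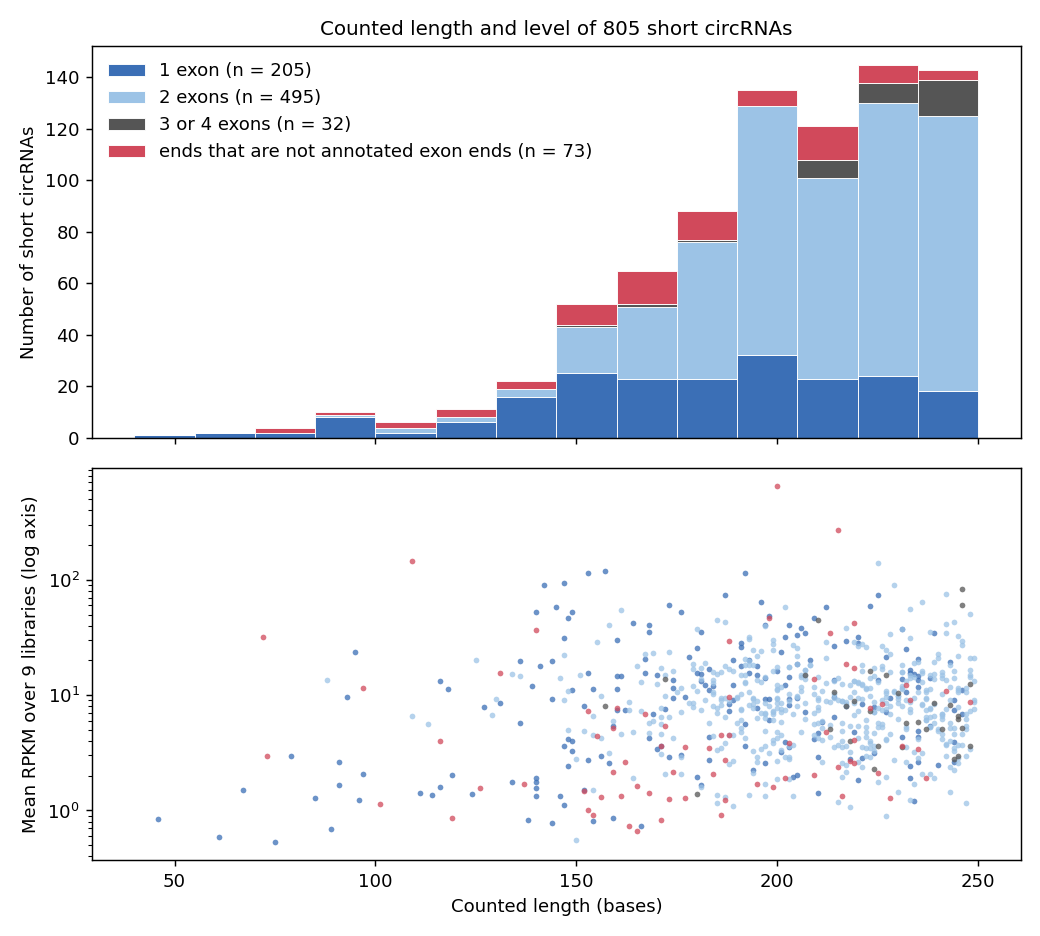
Upper panel: number of short circRNAs by counted length (bins of 15 bases), coloured by exon structure. Lower panel: mean RPKM over 9 libraries (log axis) of each short circRNA against its counted length. Circles of 1 exon (n = 205) make up most of the entries below 150 bases, circles of 2 exons (n = 495) most of those above, and the 2 entries at the top, at 648 and 270 RPKM, have ends that are not annotated exon ends (n = 73).

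The exons of short circles were mainly internal coding exons. Of the 732 with exon ends, 606 (82.8%) were coding throughout, 80 held coding and untranslated bases, 39 were untranslated and 7 came from noncoding transcripts. One included the first exon of its transcript, none included the last, and 23.9% began at exon 2, compared with 28.0% of longer circRNAs. The intron before the circle had a median length of 5652 bases and the intron after it 4911.5 bases, against 7411 and 5466 bases for longer circRNAs. G+C content was near equal, with medians of 48.6% for both. Circle lengths were a multiple of 3 in 286 of 805 (35.5%) and 37.9% of longer circRNAs. A reading frame with ATG and no stop codon on going round the circle was present in 188 short circRNAs (23.4%) and in 31.6% of longer ones. All 805 had AG before and GT after the circle on the genome, which the prediction tool requires.

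The members came from 708 genes, of which 631 gave 1 short circRNA, 73 gave 2, 3 gave 3 and 1 gave 4. For 307 members the short circRNA was the only circRNA of its gene in the table, and 483 had others beside them. Bases were shared with another entry in 244 members (30.3%) and in 50.9% of longer circRNAs, and the counts of such entries are not independent. Counts are of all reads on the exons, so reads of a longer circle can enter the level of a short one. Among others named below, longer entries overlapped those of Gnb1, Nfib, Qk, Meis2, Mpped2, Sox5, Tbc1d14 and Top2a exons 29 to 30. They also overlapped those of Rrm1, Kif2c, Ect2, Ubr7, Lsm14a, Gnptg, App and Dennd1a exons 9 to 10 and 12 to 13. Dennd1a, a guanine nucleotide exchange factor for Rab35 in endocytosis, was the gene with 4. Its circles of exons 4 to 5, 9 to 10 and 12 to 13 had mean levels of 2.56, 2.20 and 2.26 CPM, and the fourth entry, inside an intron, 0.383 CPM.

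Short circRNAs had few counts each, but their median level per kilobase was not lower than that of longer ones. Their median level was 1.66 CPM (quartiles 0.789 and 2.91), against 3.74 CPM (1.94 and 7.77) for longer circRNAs. Per kilobase of counted length the medians were 8.08 RPKM (3.89 and 14.6) and 6.49 RPKM (3.76 and 11.4). The study had kept entries above an RPKM threshold, which cuts the low end of both classes per length. In part of the longer circRNAs the counted length also does not match the exons. Reads were 150 bases long, so a circle near or below that length has little room for a read that does not cross the backsplice. Scaling by counted length makes no allowance for this. The effect of these points on the levels per length was not tested. Within the short class the median level was lower in shorter entries on both scales. It was 1.87 CPM and 8.50 RPKM at 200 to 249 bases (n = 458) and 1.43 and 7.72 at 150 to 199 (n = 273). Below that it was 0.875 and 6.78 at 100 to 149 (n = 57), and 0.200 CPM and 2.06 RPKM below 100 bases (n = 17). A count was present in all 9 libraries for 518 members and in all 3 cell types for 758. As a share of counts outside the chromosome 17 cluster and the entry within Cdk8, short circRNAs took 6.68% ± 0.993 (SD, n = 3) in PP, 6.25% ± 0.0944 in DP and 5.59% ± 0.109 in N. By library this share was 6.21%, 6.01% and 7.82% in PP, 6.16%, 6.24% and 6.34% in DP, and 5.58%, 5.70% and 5.48% in N. The N libraries lay below all PP and DP libraries, whereas PP replicate 3 was the one PP library above all DP libraries. Without it, an alternative chosen after seeing the data, the PP mean was 6.11%, below that of DP. The median member stood at 1.52 ± 0.115 CPM in PP, 1.48 ± 0.00919 in DP and 1.34 ± 0.0464 in N. The median of longer circRNAs stood at 3.64 ± 0.0802, 3.52 ± 0.0506 and 3.34 ± 0.209 CPM.

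Among entries of annotated exons, those of Taf15, Gnb1, Pea15a and Nfib had the highest levels, counted from all reads on their exons. Taf15, an RNA-binding protein of the FET family, gave 2 short circles, and that of exons 11 to 12 (circ_001117) reached 31.4 ± 21.1 CPM (mean ± SD over 9 libraries) and 139 RPKM. Its level was 15.1, 12.1 and 75.8 CPM in PP, 24.7, 36.3 and 28.9 in DP, and 53.6, 14.3 and 21.6 in N, so that PP replicate 3 and N replicate 1, the libraries that stood apart, held the highest values, and no pair of cell types passed the test. Gnb1, the beta subunit of heterotrimeric G proteins, reached 20.5 ± 5.87 CPM (mean ± SD over 9 libraries) and 83.3 RPKM with its circle of exons 3 to 5 (circ_004521). In this circle the levels overlapped between cell types, at 22.6, 19.4 and 13.0 CPM in PP, 24.7, 18.4 and 22.5 in DP, and 10.2, 27.6 and 26.1 in N. Longer Gnb1 entries of exons 2 to 5, 3 to 7 and 2 to 7 cover the same exons, at means of 21.8, 34.6 and 35.9 CPM. Nfib, a nuclear factor I transcription factor of cortical development, had a circle of exons 5 to 6 (circ_004671) at 18.3 ± 8.44 CPM (mean ± SD over 9 libraries) and 75.6 RPKM. It was 12.7, 14.7 and 10.2 CPM in PP, 16.99, 15.8 and 15.8 in DP, and 13.3, 35.4 and 29.7 in N, and the difference between N and PP (log2 fold change of 1.06 ± 0.35 SE, edgeR adjusted p = 0.0361) passed the test although N replicate 1 lay among the PP values. That call was lost when any of 7 other libraries was left out, with adjusted p between 0.0571 and 0.140 in edgeR. It was also lost with total counts (edgeR adjusted p = 0.409), at least 10 counts in every library (0.139), the replicate block (0.0704) and the 2 cell types alone (0.135). Longer Nfib entries of exons 4 to 6 and 3 to 6 cover the same exons, at means of 21.8 and 24.1 CPM. Pea15a, described with the members that fell, reached 18.7 ± 17.6 CPM (mean ± SD over 9 libraries) and 119 RPKM.

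The most abundant short entry was no circle of annotated exons. CiCo_mm9_circ_004583 (chr4:43505697-43505895, plus strand), which the study cloned, overlaps an exon of Ccdc107 in sense and lies within the gene of the RNA component of RNase MRP, a ribosomal RNA processing enzyme, which is annotated on the opposite strand. Without knowing the strand setting of the count, reads of the pair of genes cannot be told apart. It reached 130 ± 124 CPM (mean ± SD over 9 libraries) and 648 RPKM, at 72.7, 51.4 and 389 CPM in PP, 133, 177 and 251 in DP, and 6.20, 55.1 and 31.4 in N. PP replicate 3 held the highest value and N replicate 1 the lowest. The entry was lower in N than in DP (log2 fold change of -2.56 ± 0.75 SE, edgeR adjusted p = 0.0276), with replicates that did not overlap, and this call was lost without DP replicate 2, DP replicate 3, N replicate 1 or N replicate 3 (adjusted p between 0.0606 and 0.107). It was also lost among entries with at least 10 counts in every library (edgeR adjusted p = 0.0611). Between N and PP the replicates overlapped (log2 fold change -2.43 ± 0.75), and without PP replicate 3 and N replicate 1 the log2 fold change was -0.48 with an adjusted p of 0.133 in edgeR.

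Members whose ends are not annotated exon ends numbered 73, and as a group they were scarce. Of these, 49 lay inside an intron in sense of a gene, 5 began at the 5′ end of an intron, 1 was a whole annotated intron, 3 overlapped an exon in sense and 15 had no gene in sense, 5 of them on the mitochondrial genome. The median level of the 58 in sense of a gene was 0.538 CPM, against 1.71 CPM for circles of 1 exon and 1.75 CPM for circles of 2 exons. The whole intron was in Ddx5, a DEAD-box RNA helicase (circ_000777, chr11:106643571-106643782, minus strand), with 7.41 ± 2.42 CPM (mean ± SD over 9 libraries) and 34.8 RPKM. In Troap, a gene of spindle assembly, the entry (circ_002244, chr15:98905499-98905745, plus strand) began with the first base of an intron and ended 35 bases before its last base. An entry opposite mt-Nd5 (circ_006817, chrM:13273-13486, minus strand) reached 58.1 ± 50.8 CPM (mean ± SD over 9 libraries) and 270 RPKM, with 32.2, 25.1 and 179 CPM in PP, 29.2, 40.5 and 44.2 in DP, and 102, 34.7 and 36.3 in N, highest again in PP replicate 3 and N replicate 1.

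The share of short-circRNA counts on these 73 entries was 9.39%, 7.90% and 23.6% in PP replicates 1 to 3, 11.7%, 15.1% and 18.02% in DP, and 13.1%, 8.86% and 8.30% in N. PP replicate 3 held the highest share. Without the entries at the RNase MRP gene and opposite mt-Nd5 the share was 3.66% to 8.84%, with N replicate 1 the highest.

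**Figure D2:**
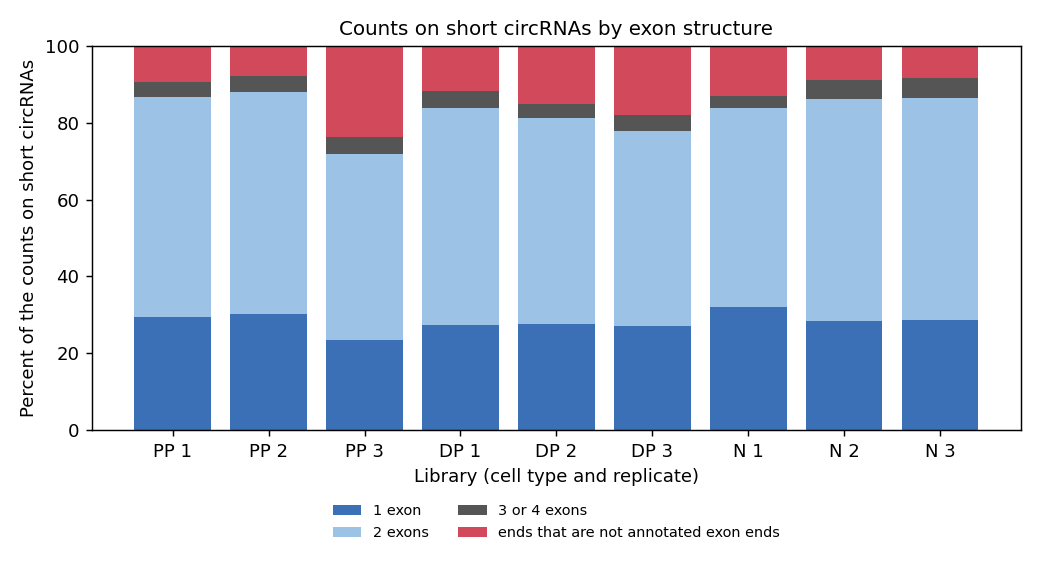
Percent of the counts on short circRNAs (vertical axis) taken by circles of 1 exon, 2 exons, 3 or 4 exons and by entries whose ends are not annotated exon ends, for each of the 9 libraries (horizontal axis). The last class takes 23.6% in PP replicate 3 and between 7.90% and 18.02% in the other 8 libraries.

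To ask how short circRNAs change along the lineage, all entries that passed edgeR's filter on low counts were tested together. This kept 486 of the 805 short circRNAs (60.4%), among 4406 entries in all, and 87.5% of the longer ones, so the other 319 members were too scarce to test. Between DP and PP 6 short circRNAs passed at an adjusted p under 0.05, which is 1.23% of those tested beside 1.86% of all entries tested, 3 higher (beside 1.48%) and 3 lower (beside 0.386%). In N against DP 76 passed (15.6%, beside 18.8% of all entries), 29 higher in N and 47 lower. In N against PP 123 passed (25.3%, beside 28% of all entries), 48 higher and 75 lower, and 97 passed the joint test of the 3 cell types (20.0%, beside 25.1%). The share of lower members in N was close to that of all entries (9.67% beside 9.8% against DP and 15.4% beside 14.4% against PP), while that of higher members was below it (5.97% beside 9.03%, and 9.88% beside 13.6%), and the difference was not tested. Median log2 fold changes of the 486 were -0.07 for DP against PP, -0.07 for N against DP and -0.14 for N against PP, with -0.06, -0.02 and -0.10 over all entries tested.

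The calls depended on the libraries that stood apart. Without PP replicate 3 and N replicate 1, 564 members were tested, and 45 (7.98%, beside 14% of all entries), 142 (25.2%, beside 33.9%) and 188 (33.3%, beside 42.2%) passed in the same order of comparisons. These included all 6, all 76 and 114 of the 123 members called with all libraries. By direction, 25 were higher and 20 lower in DP than in PP (beside 9.08% and 4.9% of all entries), 61 higher and 81 lower in N than in DP (beside 16.6% and 17.3%), and 85 higher and 103 lower in N than in PP (beside 21.6% and 20.6%). Fewer cells of a type and less RNA per cell cannot be told apart in these bulk samples. Scaling by total counts in place of TMM moved the median of all entries by -0.36 in N against DP and by -0.28 in N against PP, and the members called were then 7 higher and 36 lower, and 18 higher and 49 lower.

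**Figure D3:**
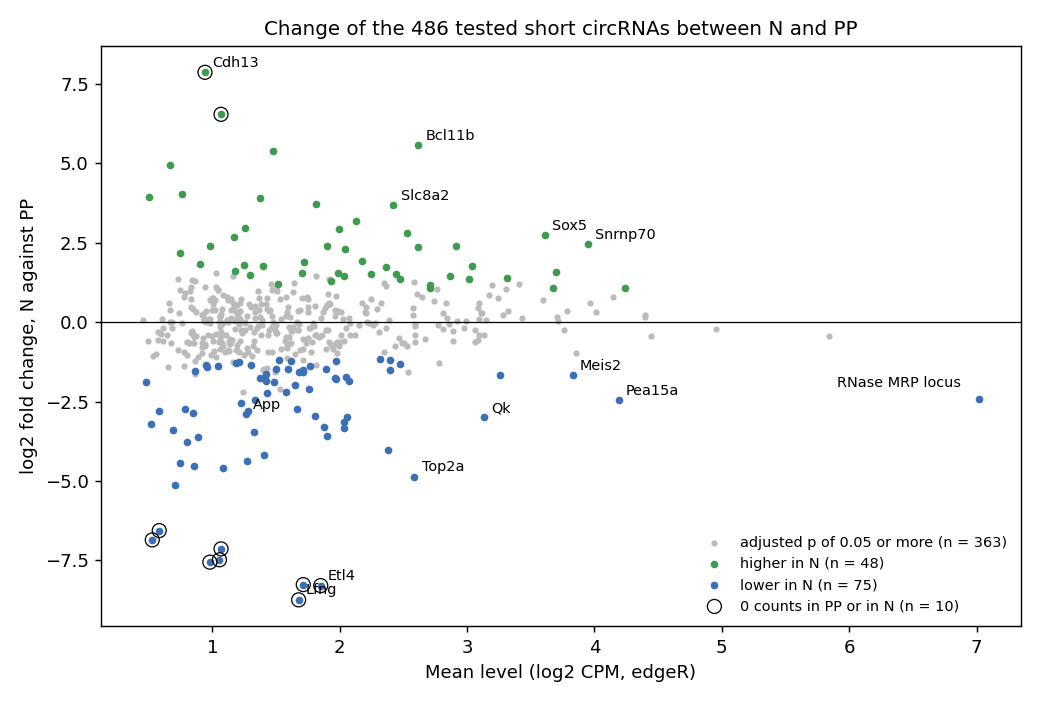
Fitted log2 fold change between N and PP (vertical axis) against the mean level in log2 CPM (horizontal axis) of the 486 tested short circRNAs. Green points were higher in N (n = 48), blue points lower (n = 75) and grey points had an adjusted p of 0.05 or more. Rings mark the 10 members with 0 counts in PP or in N, whose fitted values are not bounds.

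From PP to DP 3 short circRNAs rose and 3 fell, and in each the replicates did not overlap, as in 10.9% of all entries tested for higher and 8.4% for lower values in DP. The 3 that rose are given in full, of which Slc17a6 and Atp2b2 were named after their values were seen. The Afap1 circle of exons 2 to 3 (circ_005119), from a gene for an actin filament adaptor, stood at 1.30, 0.970 and 1.39 CPM in PP, 6.91, 5.30 and 6.46 in DP, and 6.20, 4.54 and 3.27 in N. All DP and N libraries lay above all PP libraries (log2 fold change of 2.40 ± 0.39 SE, edgeR adjusted p = 0.00423), where the fold change is for DP against PP, and this call was lost without PP replicate 2 (adjusted p = 0.0531) and with total counts (adjusted p = 0.120). Slc17a6 encodes the vesicular glutamate transporter VGLUT2, and its circle of exons 4 to 5 (circ_005927, chr7:58900375-58901644) was 0 CPM in each PP library, 3.85, 2.71 and 1.86 in DP, and 3.10, 1.51 and 1.80 in N. With 0 counts in the 3 PP libraries it was at least 3.17-fold higher in DP and at least 2.41-fold higher in N, taking the mean floor of 3 counts per library, 0.886 CPM in PP (edgeR adjusted p = 0.00461 for DP and 0.0015 for N). Atp2b2, a plasma membrane calcium pump, had a circle of exon 13 (circ_005271) at 0.260, 0.323 and 0 CPM in PP, 2.04, 1.48 and 3.60 in DP, and 5.32, 3.72 and 3.27 in N. From 3 counts in PP and 59 in DP its ratio was 9.59 (95% counting interval 3.13 to 47.8), with an adjusted p of 0.0274 in edgeR, and its level stayed above PP in N. Under 15 other settings (scalings, filters, a replicate block and left-out libraries) the Slc17a6 call for DP was not lost. The Atp2b2 call was lost in 6, namely with total counts, with the replicate block and without PP replicate 1, PP replicate 2, DP replicate 1 or DP replicate 3 (adjusted p between 0.0632 and 0.153).

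The 3 that fell from PP to DP were also named after their values were seen. Megf10, an engulfment receptor of glia, had a circle of exons 3 to 4 (circ_003017) at 4.42, 4.37 and 5.58 CPM in PP, 0.680, 1.604 and 1.12 in DP, and 0, 0.233 and 0.163 in N. It was lower at each step (log2 fold change of -2.04 ± 0.40 SE, edgeR adjusted p = 0.0159 from PP to DP), and the 3 counts left in N gave a ratio of DP to N of 6.34 (95% counting interval 1.96 to 32.6). Ddah1, which degrades the nitric oxide synthase inhibitor dimethylarginine, followed the same order with 5.71, 4.69 and 6.97 CPM in PP, 2.27, 1.36 and 1.37 in DP, and 0, 0.349 and 0.327 in N in its circle of exons 3 to 4 (log2 fold change of -1.74 ± 0.38 SE, edgeR adjusted p = 0.0288 from PP to DP). For N against DP the Ddah1 circle had a log2 fold change of -2.45 ± 0.57 SE, edgeR adjusted p = 0.00708. The circle of exons 2 to 4 of Ssbp2, a single-stranded DNA binding protein, was 5.45, 5.01 and 6.51 CPM in PP, 1.70, 2.71 and 1.61 in DP, and 4.43, 2.91 and 2.45 in N, with a log2 fold change of -1.46 ± 0.35 SE, edgeR adjusted p = 0.0496 from PP to DP. All 3 of these calls were lost with total counts and without PP replicate 1, PP replicate 2, DP replicate 1 or DP replicate 3. For DP against PP the Megf10 circle lost its call in 5 of 15 other settings (adjusted p between 0.0525 and 0.419), the Ddah1 circle in 8 (0.0628 to 0.751) and the Ssbp2 circle in 11 (0.0521 to 0.928). For N against DP the Megf10 call was lost without DP replicate 2 (adjusted p = 0.0640) or N replicate 3 (0.0645), and the Ddah1 call was kept in all 15.

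Among the named circles that were higher in N, Bcl11b, a zinc finger transcription factor of deep layer projection neurons, gave a circle of exon 3 (circ_001253) at 0.519, 0.323 and 0 CPM in PP, 2.27, 0.493 and 2.24 in DP, and 31.0, 6.75 and 14.2 in N. All N libraries lay above all others (log2 fold change of 3.28 ± 0.58 SE, edgeR adjusted p = 0.00108 against DP). Sox5, an SRY-box factor that also acts in deep layer neurons, gave 2 short circles that rose together, from exon 3 (circ_005368) and from exons 7 to 8 (circ_005364). That of exon 3 was 3.38, 3.72 and 5.11 CPM in PP, 5.55, 4.32 and 6.83 in DP, and 36.3, 19.1 and 25.5 in N (log2 fold change of 2.74 ± 0.36 SE, edgeR adjusted p = 7.06e-05 for N against PP). That of exons 7 to 8 was 1.82, 2.75 and 3.25 CPM in PP, 2.27, 2.10 and 2.24 in DP, and 19.5, 9.07 and 12.3 in N (log2 fold change of 2.57 ± 0.35 SE, edgeR adjusted p = 0.000178 for N against DP). In neither Sox5 circle did the values of N overlap with those of PP or DP.

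Slc8a2, a sodium-calcium exchanger of neurons, had a circle of exons 7 to 8 (circ_005809) at 0.779, 1.29 and 0.930 CPM in PP, 1.59, 1.36 and 1.12 in DP, and 26.6, 6.40 and 10.6 in N. PP and DP did not pass the test against each other, and N was higher (log2 fold change of 3.31 ± 0.49 SE, edgeR adjusted p = 0.000279 against DP). Mark4, a kinase that acts on microtubule-associated proteins, had a circle of exons 9 to 10 (circ_005832) at 1.82, 1.29 and 2.32 CPM in PP, 1.70, 2.84 and 4.72 in DP, and 20.4, 7.68 and 9.64 in N. N replicate 1 held the highest value in both and the other N libraries also lay above every PP and DP library (log2 fold change of 2.80 ± 0.51 SE, edgeR adjusted p = 0.000939 for Mark4 in N against PP). Tbc1d14, a regulator of autophagosome formation, had a circle of exons 5 to 6 (circ_005126) at 2.08, 2.43 and 7.44 CPM in PP, 3.40, 2.59 and 3.35 in DP, and 13.3, 7.68 and 7.68 in N (log2 fold change of 1.55 ± 0.41 SE, edgeR adjusted p = 0.0159 for N against DP), and its PP replicate 3 came close to the lowest N value. The call against DP was lost when any 1 DP library was left out, and with total counts, with adjusted p between 0.0554 and 0.400 in edgeR, and the call against PP was lost without any of 7 libraries. The call against PP was also lost with total counts (edgeR adjusted p = 0.324) and with the 2 cell types alone (0.120). An entry of 108 bases inside an intron of Snrnp70, the 70K protein of the U1 snRNP (circ_005907, chr7:52636830-52636937, minus strand), was 3.90, 4.85 and 7.44 CPM in PP, 7.81, 14.2 and 13.9 in DP, and 62.5, 13.96 and 13.2 in N (log2 fold change of 2.46 ± 0.58 SE, edgeR adjusted p = 0.00546 for N against PP). Without PP replicate 3 and N replicate 1 its log2 fold change was 1.63 (Snrnp70, adjusted p = 2.01e-05 in edgeR).

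**Figure D4:**
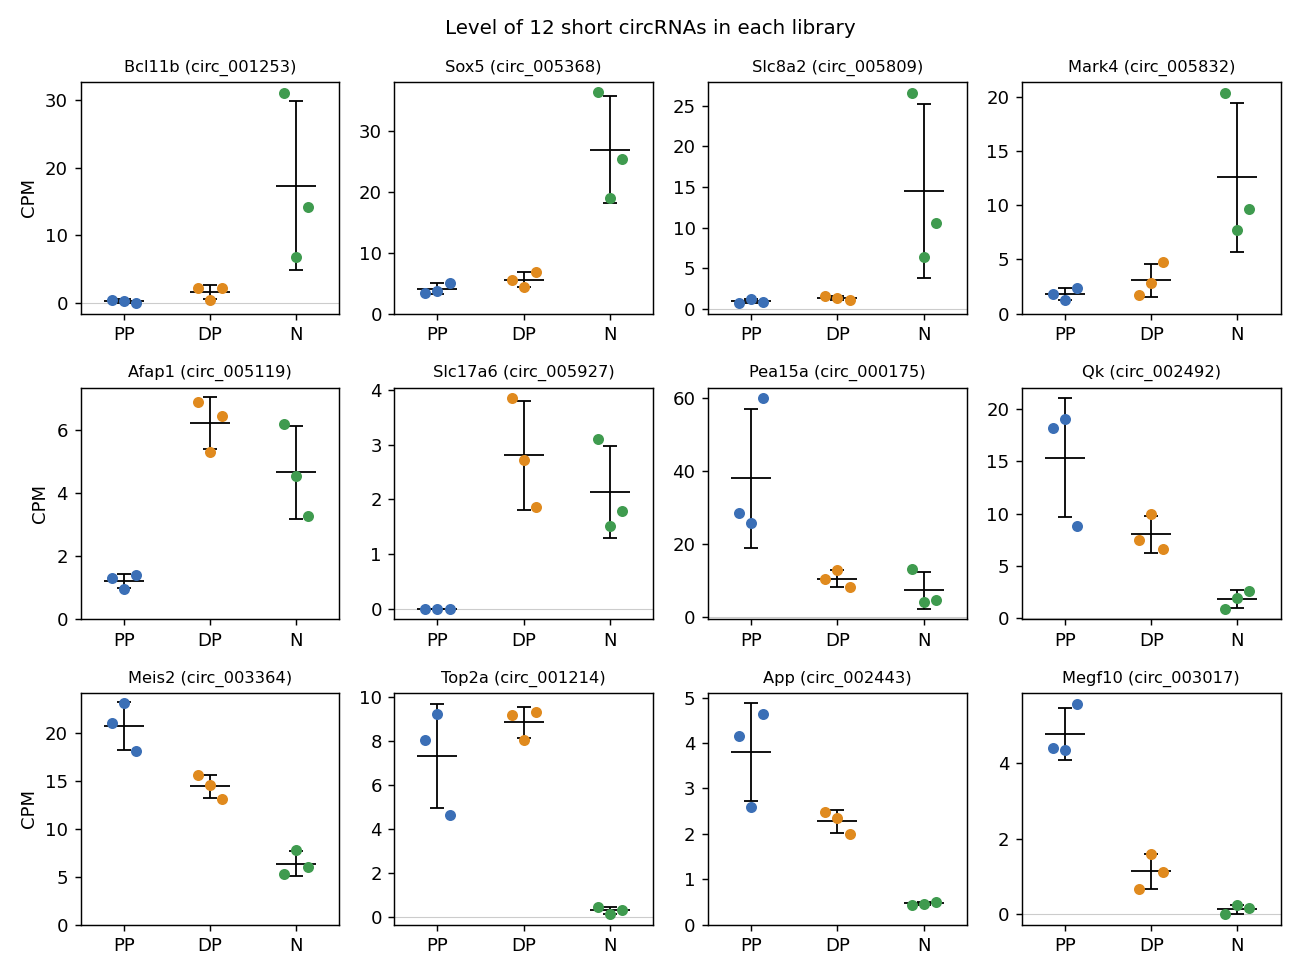
Level in CPM (vertical axis, starting at or just below 0) of 12 short circRNAs in each library by cell type (horizontal axis). Points are single libraries, long bars the mean and error bars the SD of 3 libraries. Bcl11b, Sox5, Slc8a2 and Mark4 are highest in N, Afap1 and Slc17a6 rise at DP, and Qk, Meis2, Top2a, App and Megf10 are lowest in N. Pea15a is highest in PP, and its DP and N values overlap.

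Circles of 1 coding exon were among the members that fell most clearly at high level. Pea15a, a phosphoprotein that binds ERK in neural cells, had a circle of exon 3 (circ_000175) at 28.6, 25.7 and 59.96 CPM in PP, 10.4, 13.0 and 8.32 in DP, and 13.3, 4.30 and 4.74 in N. Every PP library lay above every N library (log2 fold change of -2.45 ± 0.47 SE, edgeR adjusted p = 0.00137 for N against PP). Qk, an RNA-binding protein of the STAR family, had a circle of exon 4 (circ_002492) at 18.2, 19.1 and 8.83 CPM in PP, 7.47, 9.99 and 6.58 in DP, and 0.886, 1.86 and 2.61 in N, and it was lower in N than in DP (log2 fold change of -2.03 ± 0.41 SE, edgeR adjusted p = 0.00260) and than in PP (log2 fold change -3.00 ± 0.41). Ptbp1, the polypyrimidine tract binding protein that represses neuronal exons in progenitors, had a circle of exon 7 (circ_000661) at 15.8, 15.4 and 7.90 CPM in PP, 8.83, 10.7 and 10.7 in DP, and 6.20, 2.21 and 5.06 in N. Its values in N lay below all others (log2 fold change of -1.66 ± 0.40 SE, edgeR adjusted p = 0.00613 for N against PP), while the call against DP was lost without DP replicate 1, 2 or 3 and without N replicate 2 or 3. That call was also lost with total counts (edgeR adjusted p = 0.0688) and the replicate block (0.0669). Meis2, a homeodomain transcription factor, had a circle of exon 9 (circ_003364) at 21.0, 23.1 and 18.1 CPM in PP, 15.6, 14.6 and 13.2 in DP, and 5.32, 7.79 and 6.04 in N. The values did not overlap between cell types, and N differed from PP (log2 fold change of -1.68 ± 0.29 SE, edgeR adjusted p = 0.000634). DP against PP did not pass (log2 fold change -0.53, edgeR adjusted p = 0.505). The call for N against DP in this circle was lost without DP replicate 1, without N replicate 3 and with total counts (edgeR adjusted p = 0.182). Mpped2, a metallophosphoesterase, had a circle of exon 4 (circ_003354) at 6.75, 8.09 and 5.11 CPM in PP, 6.23, 5.80 and 4.97 in DP, and 1.33, 2.68 and 2.61 in N (log2 fold change of -1.51 ± 0.35 SE, edgeR adjusted p = 0.00452 for N against PP, with adjusted p = 0.0864 under total counts). Its call against DP was lost without DP replicate 1, DP replicate 2 or N replicate 3 and with total counts (edgeR adjusted p = 0.206).

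Short circles of cell division genes were lower in N in many cases and higher in none that passed the test. Of 22 tested members on a list of cell cycle and DNA replication genes, 12 were lower in N than in PP and 7 lower than in DP, beside 14.4% and 9.8% of all entries tested. Over all 145 tested circRNAs of the listed genes 77 and 65 were lower. Without PP replicate 3 and N replicate 1, 13 of 23 members were lower than in PP, and with total counts 8 of 22. The median log2 fold change for N against PP was -1.34 over these 22 and -1.43 over the 145. Top2a, the topoisomerase that untangles chromosomes before division, gave 2 short circles with the same profile. That of exons 29 to 30 (circ_001214) was 8.05, 9.22 and 4.65 CPM in PP, 9.17, 8.02 and 9.32 in DP, and 0.443, 0.116 and 0.327 in N, and dropped in N (log2 fold change of -5.08 ± 0.50 SE, edgeR adjusted p = 2.61e-05 for N against DP). That of exons 13 to 14 (circ_001216) was 3.90, 9.70 and 3.25 CPM in PP, 8.83, 8.51 and 6.09 in DP, and 0.443, 0.465 and 0.163 in N (log2 fold change of -4.40 ± 0.56 SE, edgeR adjusted p = 0.000119 for N against DP). Rrm1, the large subunit of ribonucleotide reductase, had a circle of exons 16 to 17 (circ_005656) at 4.42, 5.82 and 5.11 CPM in PP, 3.06, 6.78 and 3.85 in DP, and 0.443, 0.349 and 0.490 in N (log2 fold change of -3.39 ± 0.49 SE, edgeR adjusted p = 0.000239 for N against DP). In all 3 circles the N values stayed under 0.5 CPM and every PP and DP value was above 3.

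Of 16 tested members on the spindle and centrosome list, 9 were lower in N than in PP and 5 lower than in DP, and none passed as higher, and of the 116 tested circRNAs of the list 56 and 38 were lower. The median log2 fold change for N against PP was -1.62 over the members and -1.24 over the 116. The median was -1.01 over 17 members without PP replicate 3 and N replicate 1, and 9 of the 17 were again lower than in PP. Kif2c, a microtubule-depolymerizing kinesin at centromeres, had a circle of exons 7 to 8 (circ_004282) at 1.04, 1.94 and 2.79 CPM in PP, 2.38, 2.84 and 1.86 in DP, and 0, 0.116 and 0 in N, with 1 count in N and 59 in DP (ratio 40.1, 95% counting interval 6.92 to 1610). Ect2, the exchange factor that starts cytokinesis, had a circle of exons 7 to 8 (circ_004032) at 3.12, 2.59 and 7.90 CPM in PP, 1.70, 2.71 and 2.36 in DP, and 0.443, 0.233 and 0 in N. From 3 counts in N and 56 in DP its ratio was 12.7 (95% counting interval 4.12 to 63.3). Racgap1, its partner at the central spindle, had a circle of exons 2 to 3 (circ_002252) at 3.12, 3.07 and 2.79 CPM in PP, 2.94, 2.59 and 2.73 in DP, and 0.886, 0.349 and 0.327 in N (log2 fold change of -2.65 ± 0.46 SE, edgeR adjusted p = 0.000879 for N against DP). In all 3 every N library lay below every PP and DP library.

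Of the members called lower in N, 8 had 0 counts in the 3 N libraries, 2 of Etl4 and 1 each of Espl1, Eps15, Lrrc1, Tanc1, Lfng and Troap, and they were named after their values were seen. The Etl4 circle of exon 5 (circ_003632) was 7.01, 7.92 and 3.72 CPM in PP, 1.93, 3.33 and 5.47 in DP, and 0 in each N library, and that of exons 9 to 10 (circ_003635) was 6.75, 8.41 and 2.79 CPM in PP, 2.38, 2.47 and 3.60 in DP, and 0 in each N library. Taking the mean floor of 0.723 CPM in N, they were at least 4.94-fold and 3.90-fold lower in N than in DP, and at least 8.60-fold and 8.28-fold lower than in PP. Espl1, the separase that cuts cohesin at anaphase, had a circle of exons 4 to 5 (circ_002007) at 2.60, 1.94 and 5.11 CPM in PP, 2.60, 2.22 and 2.36 in DP, and 0 in each N library, at least 3.31-fold lower in N than in DP. The entry inside an intron of Lfng, a glycosyltransferase of the Notch pathway (circ_004960), was 3.90, 3.23 and 22.8 CPM in PP, 0.793, 1.97 and 1.12 in DP, and 0 in each N library, with PP replicate 3 far above the other PP libraries, and it was at least 13.8-fold lower in N than in PP. This bound was 4.93-fold without PP replicate 3, again an alternative chosen after seeing the data, and the call against PP was kept in 15 other settings. The Troap entry was 0.779, 1.46 and 11.6 CPM in PP, 1.02, 2.71 and 1.99 in DP, and 0 in each N library, again highest in PP replicate 3, and at least 2.64-fold lower in N than in DP. This call against DP was lost without DP replicate 2, DP replicate 3, N replicate 2 or N replicate 3 (adjusted p between 0.0588 and 0.0972). On the side of higher members Cdh13, a cadherin without a cytoplasmic domain, had a circle of exon 5 (circ_006099) at 0 CPM in each PP library, 0.227, 0 and 0.248 in DP, and 6.20, 3.84 and 5.06 in N, at least 5.68-fold higher in N than in PP.

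Of 23 tested members on the synapse, axon and excitability list, 6 were higher in N than in PP and 3 lower, beside 13.6% and 14.4% of all entries tested. The median log2 fold change was 1.07 beside 1.24 over all 200 tested circRNAs of these genes. Ctnna2, the neuronal alpha catenin, had a circle of exons 9 to 10 (circ_005532) at 0.779, 0.485 and 2.79 CPM in PP, 1.81, 2.10 and 1.12 in DP, and 6.65, 8.84 and 8.66 in N (log2 fold change of 2.28 ± 0.40 SE, edgeR adjusted p = 0.00113 for N against DP, with adjusted p = 0.0756 under total counts). Shank2, a scaffold of the postsynaptic density, had a circle of exons 17 to 18 (circ_005804) at 0, 0 and 0.465 CPM in PP, 0.453, 0.247 and 0.994 in DP, and 6.20, 2.33 and 2.45 in N, with 1 count in PP and 49 in N (ratio 35.2, 95% counting interval 6.03 to 1420). Without PP replicate 3 and N replicate 1, 13 of 27 tested members of this list were higher in N than in PP and 3 lower, while with total counts 2 of 23 were higher and 1 lower. Against DP 6 were higher and 2 lower in N, or 0 higher and 1 lower with total counts, beside 9.03% and 9.8% of all entries.

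The other lists had calls in both directions or few. For N against PP, 3 of 32 RNA binding and splicing members (9.38%) rose and 3 fell, beside 13.6% and 14.4% of all entries tested. Among them were Qk, Lsm14a, a translational repressor, and Rbfox1, a neuronal splicing factor, with Ptbp1 and Snrnp70 given above. The circle of exons 10 to 12 of Rbfox1 (circ_002427) was 0, 0.162 and 0.465 CPM in PP, 0.453, 0.123 and 0.497 in DP, and 4.43, 2.09 and 2.78 in N, with 2 counts in PP and 45 in N (ratio 16.2, 95% counting interval 4.22 to 137). The circle of exon 9 of Lsm14a (circ_005870) was 7.01, 6.15 and 4.18 CPM in PP, 3.06, 5.06 and 3.48 in DP, and 2.22, 1.75 and 1.63 in N (log2 fold change of -1.71 ± 0.37 SE, edgeR adjusted p = 0.00301 for N against PP). On the chromatin and transcription list 8 of 52 rose (15.4%) and 7 fell (13.5%), shares near those of all entries. Without PP replicate 3 and N replicate 1, 4 rose and 6 fell of 35 RNA binding members, and 12 rose and 11 fell of 62 on the chromatin list. On the membrane traffic list 1 of 21 rose and 3 fell, or 4 and 5 of 23 without PP replicate 3 and N replicate 1. With all libraries the one that rose was of Rab11fip4, a Rab11 effector (circ_001102, exons 2 to 3), with 0.260, 0.970 and 0 CPM in PP, 0.906, 1.11 and 2.86 in DP, and 11.1, 4.77 and 8.17 in N. Dennd1a circles on this list fell in 2 cases, exons 4 to 5 (log2 fold change of -1.88 ± 0.46 SE, edgeR adjusted p = 0.00710) and exons 12 to 13 (log2 fold change -1.79 ± 0.61), the latter lost without PP replicate 1, PP replicate 2, DP replicate 1 or N replicate 3 (adjusted p between 0.0607 and 0.175). The latter call was also lost with total counts (edgeR adjusted p = 0.0920) and the replicate block (0.0833).

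On the ubiquitin and SUMO list none of 25 tested members passed for N against PP in edgeR, and 2 rose without PP replicate 3 and N replicate 1. The 3 members of this list with the smallest p over the 3 cell types were those of Trim41 and Ubr7, RING and UBR-box proteins of ubiquitin transfer, and Senp1, a SUMO protease. The Trim41 circle of exon 3 (circ_000942) was 2.34, 1.94 and 6.04 CPM in PP, 4.08, 6.66 and 7.70 in DP, and 10.6, 5.70 and 7.02 in N, and the Senp1 circle of exons 2 to 3 (circ_002240) was 1.30, 1.78 and 13.9 CPM in PP, 2.27, 2.47 and 2.11 in DP, and 2.22, 0.582 and 1.14 in N, and their ranges overlapped between PP and N. The Ubr7 circle of exons 2 to 3 (circ_001233) was 1.04, 2.10 and 1.39 CPM in PP, 1.93, 1.97 and 2.36 in DP, and 0, 1.05 and 0.490 in N and passed for N against DP (log2 fold change of -1.59 ± 0.52 SE, edgeR adjusted p = 0.0459), a call lost in DESeq2 (adjusted p = 0.0787), with total counts, with the replicate block and without any DP library, N replicate 1 or N replicate 3 (adjusted p up to 0.209).

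The reads of one short entry changed apart from the other circRNAs of its gene. In edgeR's test of a circRNA against the others of its gene, 322 members were tested among 3063 circRNAs, and 0, 1 and 1 passed for DP against PP, N against DP and N against PP (beside 0%, 0.0326% and 0.0653% of all tested), with 2, 2 and 8 members at an unadjusted p under 0.05. The call was the entry of exons 7 to 8 of App, the amyloid precursor protein (circ_002443, chr16:85040496-85043988, minus strand), whose sequence stands above. Exons 7 and 8 of App encode the Kunitz protease inhibitor and OX-2 domains and are known to be skipped in the main neuronal mRNA. The entry stood at 4.16, 2.59 and 4.65 CPM in PP, 2.49, 2.34 and 1.99 in DP, and 0.443, 0.465 and 0.490 in N, with every PP and DP library above every N library. It was lower in N than in PP (log2 fold change of -2.89 ± 0.47 SE, edgeR adjusted p = 0.000367) and than in DP (log2 fold change -2.22 ± 0.46). Relative to the other App circRNAs the log2 difference was -2.23 for N against PP (edgeR adjusted p = 8.22e-05) and -1.83 for N against DP (adjusted p = 0.00958). The former held without each library in turn (adjusted p between 0.000153 and 0.0100), and the latter was lost without DP replicate 1, DP replicate 2, or any N library (adjusted p between 0.0541 and 0.452).

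The other App circRNAs with exon ends, of exons 3 to 5, 4 to 5, 7 to 13, 9 to 11, 9 to 13 and 12 to 13, had log2 fold changes of 0.02 to 0.86 for N against PP, none of which passed. One further entry without such ends had a log2 fold change of -0.27. The circle of exons 7 to 13 also holds exons 7 and 8 besides exons 9 to 13, and it stood at 25.99 ± 4.63 CPM in PP and 26.2 ± 1.59 in N. The entry of exons 9 to 13 alone stood at 23.9 ± 5.16 CPM in PP and 25.8 ± 1.73 in N. Most of the level of the circle of exons 7 to 13 thus lay on exons 9 to 13, and its steady value does not describe exons 7 and 8. Counts are of all reads on the exons of an entry and not of reads across the backsplice alone. Whether the reads of exons 7 and 8 came from this circle, a longer one or linear RNA left after RNase R cannot be told apart.

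**Figure D5:**
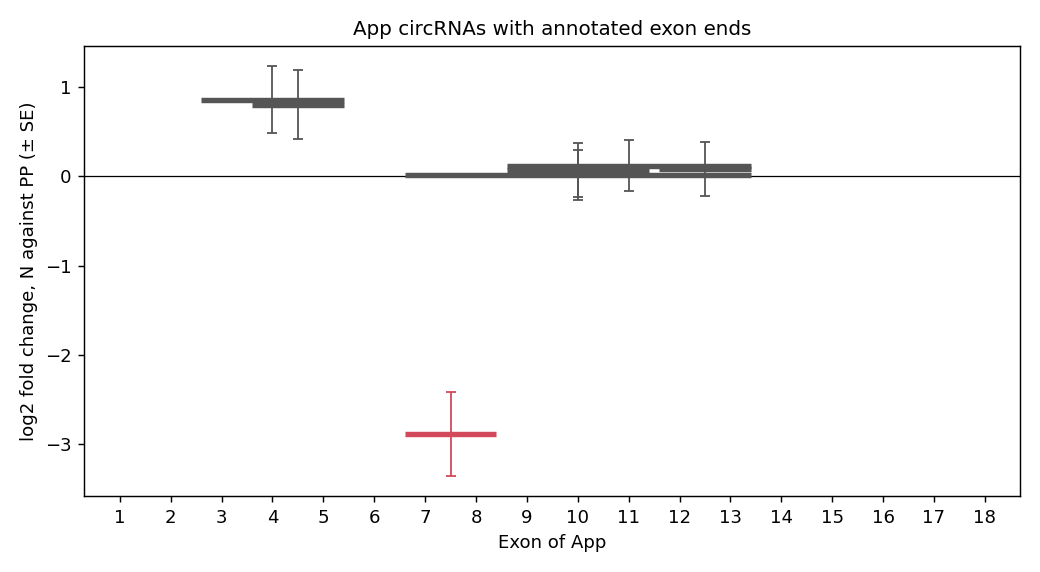
Log2 fold change between N and PP (vertical axis, error bars are the SE) of App circRNAs with annotated exon ends, drawn over the exons they hold (horizontal axis, exon number). The entry of exons 7 to 8 (red) lies at -2.89 and the 6 others (grey) between 0.02 and 0.86.

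Where a gene also had a longer circRNA to compare, the called short circles mostly had its direction. For 233 tested members the gene also had a tested longer circRNA whose span did not overlap theirs. Of the 62 such members called for N against PP, 60 had the sign of the median longer circRNA, and of the 40 called for N against DP, 39 did. The other called members, of 123 and 76 in all, had no such longer circRNA tested. Median absolute log2 fold changes were 1.91 for these 62 members and 1.81 for their longer circRNAs, and 2.24 and 2.20 for the 40. The same libraries enter both values.

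By fold change alone, at least 1.5 or at most 0.67 in each step and with no p threshold, 257 of the 805 members (31.9%) stayed level over both steps, beside 39.7% of all entries. A further 124 fell only in N (15.4%, beside 14.6%), 98 rose only in N (12.2%, beside 13%), 74 fell in both steps (9.19%, beside 7.42%) and 42 rose in both (5.22%, beside 6.38%). Changes at the first step alone were rises in 50 (6.21%, beside 4.83%) and falls in 89 (11.1%, beside 8.22%). Transient profiles were found for 19 that rose then fell (2.36%, beside 1.53%) and 52 that fell then rose (6.46%, beside 4.3%), and no member of either class passed the test in both steps. In edgeR's joint test of the 3 cell types, 19 of 26 tested members that rose in both steps passed, beside 241 of 264 of all entries. Of those that fell in both, 24 of 36 passed, beside 225 of 291, and of level members 0 of 192, beside 2 of 1911. The profiles are defined by fold changes of the same counts, so these calls are no separate evidence for them.

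The shortest members were at the edge of what these counts can show. The shortest tested entry, of 71 bases, overlaps the end of the mitochondrial gene of threonine transfer RNA, mt-Tt, and otherwise lies opposite that of proline transfer RNA (circ_006821, chrM:15353-15423, plus strand), at 2.08, 1.13 and 3.25 CPM in PP, 1.59, 2.22 and 2.73 in DP, and 3.10, 2.33 and 2.12 in N. The exon 6 circle of Gnptg, the gamma subunit of a Golgi phosphotransferase (circ_002524), was 94 bases long with 2.08, 1.29 and 6.04 CPM in PP, 1.25, 1.73 and 2.11 in DP, and 2.66, 1.75 and 1.31 in N, and in neither did a pair of cell types pass the test. Of 17 members under 100 bases, 2 were tested, and the median member of the 17 had 8 counts summed over 9 libraries.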

How the data were processed

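Lateral cortices of E14.5 Btg2-RFP/Tubb3-GFP embryos were dissociated and sorted into PP, DP and N, and libraries of RNase R-treated total RNA were sequenced with single-end reads of 150 bases. The authors aligned reads to mm9 with gsnap, predicted circRNAs from unmapped reads with find_circ, and kept entries above an RPKM threshold. They deposited raw counts per circRNA, made with featureCounts (Subread 1.6.0, per the labels) over the expressed sequences of each entry. The counts thus hold all reads on those sequences and not backsplice reads alone. The strand setting and the treatment of overlapping entries are not given in the sources used here. The deposited length equalled the exonic length plus 1 base per exon in 727 of 732 members with exon ends, and in 86.4% of longer circRNAs. The Meis2 entry of exons 8 to 9, for example, has a deposited length of 49069 bases. The study left introns in its list of expressed sequences, so counts and lengths of some longer entries may include introns.

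Counts were tested with edgeR 4.0.16 in R 4.3.3 (filterByExpr, TMM, quasi-likelihood test over all 9 libraries, Benjamini-Hochberg adjustment over the 4406 entries tested, threshold 0.05), and a member against the other circRNAs of its gene with edgeR's diffSpliceDGE. CPM are per 1e+06 counts of the TMM library size, and RPKM are CPM per kilobase of counted length. DESeq2 1.42.0 gave the fold changes of the profiles, with the study's limits of 1.5 and 0.67, and was an alternative test. Tables, sequences and plots were made with Python 3.11.15, pandas 2.3.3, numpy 2.4.6, scipy 1.17.1, pysam 0.24.0 and matplotlib 3.10.9, with GENCODE vM1 for exons. The edgeR, DESeq2 and diffSpliceDGE fits were tried on simulated counts with known changes. Intervals and floors cover counting error only. Libraries held 83572 to 287983 counts outside the chromosome 17 cluster and the entry within Cdk8. These were fewest in PP replicate 3 (83572) and N replicate 1 (102958), which limits precision most there.

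Groups follow the sorting labels, and replicates are biological per the study. Same-numbered libraries of 2 cell types had correlations of their deviations between -0.261 and 0.303, so the numbers were not used as a block. Named circRNAs are the 5 with the greatest change per comparison and direction (adjusted p under 0.05, mean level at or above the median, replicates that do not overlap, 1 per gene), the 5 most abundant, the 3 shortest tested, those of the gene with most members, those called against their gene, up to 3 per gene list by p over the 3 cell types, and the cloned entry. The members and gene lists were chosen with earlier results of these data known. Columns of the authors' own comparisons were not used. Alternatives were other scalings, filters, length limits, a replicate block, 2 cell types alone and leaving out libraries.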

Additional observations from a re-analysis of the deposited data

How the results depend on the processing

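The number of short circRNAs called moved by more than 1.5 times under several settings. Scaling by total counts gave 1 for DP against PP, 43 for N against DP, 67 for N against PP and 57 over the 3 cell types, and keeping only entries with at least 10 counts in every library, which left 67 members, gave 2, 6, 12 and 10. Without PP replicate 3 and N replicate 1 the counts were 45, 142, 188 and 179. A limit of 200 bases, with fewer members tested, gave 1, 27, 44 and 35, and a limit of 300 bases, with more, 12, 130, 221 and 180. With the 2 cell types alone N against PP gave 63. Leaving out 1 library at a time gave 2 to 12 for DP against PP, 53 to 112 for N against DP, 101 to 152 for N against PP and 72 to 140 over the 3 cell types, and DP against PP fell to 2 without PP replicate 1, PP replicate 2, DP replicate 1 or DP replicate 3 and rose to 12 without PP replicate 3. The cause of these changes was not tested beyond the number of entries and libraries that enter.

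Replicate numbers are shared by the cell types but did not pair the libraries, and not every library correlated best with its own number. A replicate block gave 3 for DP against PP, 63 for N against DP and 101 for N against PP, a median log2 fold change of -0.0885 for N against PP, and 0 members called against their gene for N against DP, where the App circle had an adjusted p of 0.0623.

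The median log2 fold change of short circRNAs for DP against PP was -0.15 in DESeq2, 0.000626 with total counts, 0.0295 under 200 bases, and -0.125 to -0.00895 on leaving out 1 library. For N against DP it was -0.44 with total counts and 0.0488 with at least 10 counts, and for N against PP -0.22 in DESeq2, -0.42 with total counts, -0.24 with no filter, 0.0045 with at least 10 counts, -0.0242 under 200 bases, and -0.184 to -0.0748 on leaving out 1 library. The median level was 8.08 as RPKM, 1.47 CPM as a median over libraries, 1.33 CPM under 200 and 1.82 CPM under 300 bases. As a share of all counts the members took 0.246% in PP, 0.246% in DP and 0.186% in N. Profiles that rose then fell numbered 22 to 41 on leaving out 1 library, and calls against the gene 0 to 1 for N against DP and 1 to 2 for N against PP. Of 58 called values of named members, 37 kept their call under each alternative in which a value could be computed, and none changed direction. Values could be computed for 11 of the 58 with at least 10 counts, 52 with the 2 cell types alone and 56 in DESeq2. With total counts 19 of 56 lost their call.

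Depth limits the rest, since 319 of 805 members were too scarce to test and a floor of 3 counts was worth up to 1.39 CPM.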
